A study of Mus musculus with 4 samples.

Results

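RNA of the p53 pathway was followed in BEKO, a mouse thymic lymphoma cell line, through 9 genes: Trp53, its inhibitors Mdm2 and Mdm4, and the targets Ccng1, Trp53inp1, Zmat3, Eda2r, Phlda3 and Aen. The genes were picked as textbook members of the pathway by symbol, at a time when earlier results of these data were known, and all 9 were found among the 25630 rows of the table. The 4 libraries came from cells at low density (2 libraries) and at high density (2 libraries). All carry the genotype label WT, which names no gene, and the labels give no treatment, medium, culture time or cell number. BEKO is 1 line, and the sources used here do not say whether its Trp53 gene is intact. Values are TPM (transcripts scaled to an equal total in each library, a level already divided by gene length), as deposited by the authors, and group values are mean ± SD (n = 2 libraries). Log2 fold changes are differences of log2(TPM + 1), high minus low density, written ± their standard error, and a gene was called at a limma adjusted p under 0.05.

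p53 is a transcription factor that is made and destroyed continuously in unstressed cells. Mdm2, a ubiquitin ligase, marks it for degradation, and Mdm4, a relative of Mdm2 that binds the same part of p53, holds its activity down. DNA damage and other stresses release p53 from both, and it then switches on genes for cell cycle arrest, repair and cell death, together with Mdm2 itself, which closes a feedback loop. In thymocytes the pathway is known for driving death after DNA damage, and its loss in mice is a classic cause of thymic lymphoma. RNA levels report neither the amount nor the activity of the p53 protein, which is controlled largely after translation.

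p53 binds DNA through a decamer that is repeated in a full response element. The decamer was searched by its published consensus, which reads the same on both strands, in RefSeq promoter sequences (GRCm38.p6) that run from 250 bases before to 50 bases after an annotated start. Of the 9 genes, 7 were matched to such a window, all but Trp53inp1 and Zmat3. Windows of 4 of the 7 held an exact match, against 9.55% of all 27025 genes with a window. Among the rows tested the share was 7.73% of 8418 genes that had a window. Of the further textbook targets described below, 31 had a window, whether tested or not, and 10 of these (32.3%) held a match. Both sets were picked as textbook p53 genes, so these shares are a description and not a test. The 4 matches in the windows of the 9 genes are shown first. They are single exact decamers, and only these windows were searched. The fifth sequence, from the cell cycle inhibitor gene Cdkn1a, is the standard for comparison. Capitals mark exact matches to the decamer, of which the stretch from Cdkn1a holds 2 that are not adjacent. Near matches were not marked and stay in small letters. The capitals therefore do not outline a full response element, in Cdkn1a or elsewhere. Each sequence is written 5′ to 3′ on the strand of its gene.
Trp53, chr11:69580249-69580328, plus strand, decamer starting 75 bases before the annotated start: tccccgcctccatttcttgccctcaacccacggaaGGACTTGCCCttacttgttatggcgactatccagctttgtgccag
Mdm2, chr10:117710900-117710979, minus strand, 186 bases before: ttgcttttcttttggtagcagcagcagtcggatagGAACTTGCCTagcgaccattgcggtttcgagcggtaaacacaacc
Ccng1, chr11:40755427-40755506, minus strand, 185 bases before: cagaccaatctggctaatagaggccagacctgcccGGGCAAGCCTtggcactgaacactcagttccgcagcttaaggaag
Aen, chr7:78895902-78895981, plus strand, 121 bases before: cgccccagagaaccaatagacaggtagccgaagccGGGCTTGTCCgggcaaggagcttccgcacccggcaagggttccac
Cdkn1a, chr17:29090871-29090950, plus strand, 73 bases before: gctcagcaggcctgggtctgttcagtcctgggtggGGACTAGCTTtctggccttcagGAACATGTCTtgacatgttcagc

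A match describes letters and is neither a bound site nor a cause of any value. The windows of Mdm4, Eda2r and Phlda3 held no exact match, which says only that these letters are not in those windows. The 4 genes with a match did not share a direction, with log2 fold changes of −0.71 for Trp53, 0.56 for Mdm2, −0.20 for Ccng1 and −0.63 for Aen.

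None of the 8 genes tested was called between the densities by limma (0 of 8, with 5 of 8 at an unadjusted p under 0.05). Eda2r lay under the filter, which asked for an average TPM of 1 or more. Over all 10936 rows tested, 6.68% were called, 4.57% as higher and 2.11% as lower at high density, and 23.5% had an unadjusted p under 0.05. The RNA of the 2 groups did not overlap for 6 of the 8 genes, against 54.7% of all rows tested. In 3 of these, Mdm2, Mdm4 and Trp53inp1, the high density libraries lay above the low ones (34.7% of all rows), and in 3, Trp53, Ccng1 and Aen, below them (20.0% of all rows). The median log2 fold change was 0.17 for the 8 genes and 0.12 for all rows tested, so every change is to be read against a shift of 0.12. Median centring moved that shift to −0.06 and the split of all calls from 500 higher and 231 lower to 160 higher and 154 lower.

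Several facts of the libraries touch these values. Separate cultures are not named in the labels, and p-values therefore measure only how far these libraries spread, which may be technical. The smallest p that exact permutation of 2 against 2 libraries allows is 0.333, and that test is left out. The high density pair differed more than the low density pair in 71.9% of rows tested. All 10 T lineage markers were present, with a summed level of 6486 to 7396 TPM per library, but 2 of them differed between the densities. Rag1, of the recombinase that assembles T cell receptor genes, was 609 and 480 TPM at low and 185 and 181 TPM at high density (lower, limma adjusted p = 0.00283). Trdc, the T cell receptor delta constant gene, was 18.1 and 16 TPM at low and 101 and 77.1 TPM at high density (higher, 0.000911). Their part in the values of the p53 genes was not tested. Markers of B cells, erythroid cells and thymic epithelium summed to at most 4.14 TPM. Of 5 fibroblast markers, Col1a1 reached 30.3 TPM and Col1a2 14.5 TPM in low density library 1, and the list summed to 46.9 TPM there against 0.33 to 0.673 TPM in the others. Myeloid markers summed to 8.5 and 6.62 TPM at low and 16.1 and 12.1 TPM at high density, almost all of it Itgam, with Lyz2 at 0. The part of these RNAs in the results was not tested. Without low density library 1 the log2 fold changes were −0.64 for Trp53, 0.55 for Mdm2, 0.70 for Mdm4 and −0.14 for Ccng1. In the same fit they were 1.06 for Trp53inp1, 0.24 for Zmat3, 0.37 for Phlda3 and −0.63 for Aen. In bulk RNA, fewer cells of a type and less RNA per cell cannot be told apart.

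**Figure D1:**
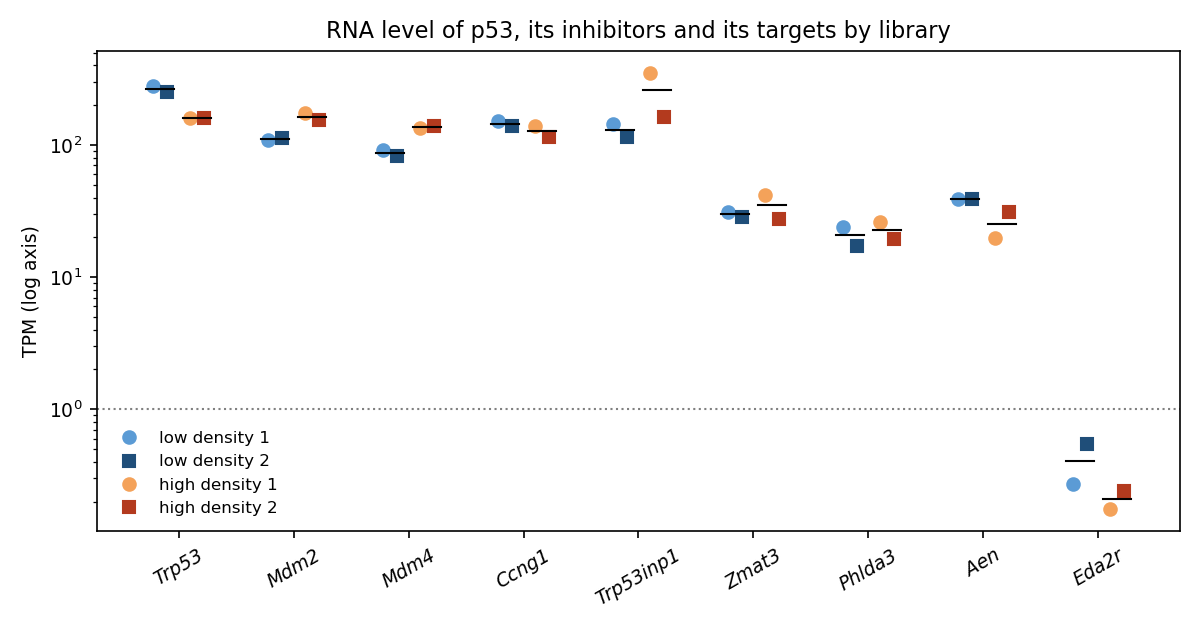
RNA level in TPM (log axis) of the 9 genes in each of the 4 libraries, with black bars for the mean of each pair and a dotted line at the filter of 1 TPM. Trp53 stands at 251 and 277 TPM at low and at 160 and 161 TPM at high density, without passing the test, Trp53inp1 separates the high density libraries (353 and 164 TPM), and Eda2r lies below the filter in all 4.

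Trp53 RNA was 277 and 251 TPM in the low density libraries and 161 and 160 TPM in the high density libraries. The pairs were tight and did not overlap, and the low and high density means were 264 ± 18.7 and 160 ± 0.615 TPM, a ratio of 0.608. The log2 fold change was −0.71 ± 0.22 (95% interval −1.20 to −0.22), and the gene did not pass the test across all rows (limma adjusted p = 0.0789). Over 14 other settings its log2 fold change lay between −0.90 and −0.64 and its adjusted p between 0.00957 and 0.672. At a mean level in the 92.6th percentile of all rows tested, Trp53 was an abundant RNA in this line at both densities.

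Mdm2 RNA stood at 110 and 112 TPM at low and at 174 and 155 TPM at high density. Both high density libraries exceeded both low density ones, with means of 111 ± 1.33 and 164 ± 13.3 TPM (ratio 1.48). The log2 fold change was 0.56 ± 0.23 (95% interval 0.06 to 1.06, limma adjusted p = 0.167). Mdm2 is at once the main destroyer of p53 and one of its best known targets.

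Mdm4 RNA stood at 92.4 and 83.1 TPM at low and at 134 and 138 TPM at high density, again without overlap. Its means were 87.7 ± 6.6 and 136 ± 3.02 TPM (ratio 1.55), with a log2 fold change of 0.62 ± 0.23 (95% interval 0.12 to 1.13, limma adjusted p = 0.13). In the GENCODE M21 annotation of another mouse build it was the single gene of the 9 that overlapped another annotated gene, a processed pseudogene on the opposite strand that has no row in the table. After median centring, the setting that moved both inhibitors most, the log2 fold changes were 0.37 for Mdm2 and 0.44 for Mdm4, and that of Trp53 was −0.90.

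**Figure D2:**
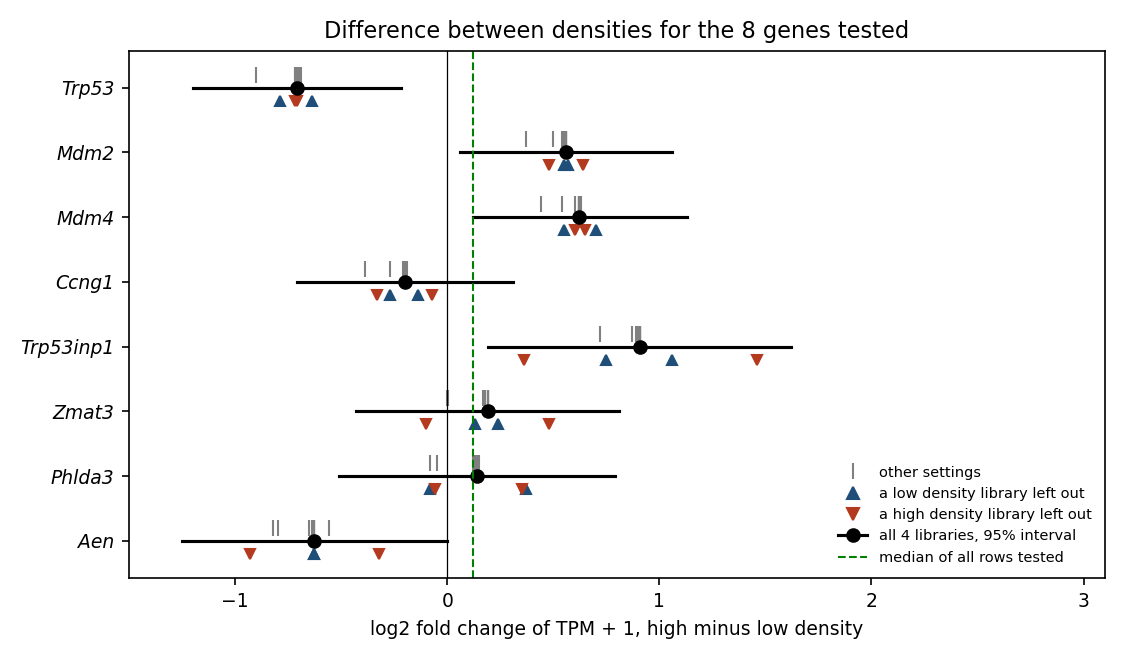
Log2 fold change of TPM + 1, high minus low density, for the 8 genes tested: black points and lines give the value and 95% interval from all 4 libraries, grey ticks the other settings and triangles the fits with 1 library left out, and the green line marks the median of all rows (0.12). Trp53 stays between −0.90 and −0.64 and Mdm4 between 0.44 and 0.70 in all of them, whereas Trp53inp1 runs from 0.36 to 1.46 with the high density library that is left out.

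Because Trp53 and its inhibitors lay on opposite sides of 0, their proportions were computed within each library, where a scaling factor common to all genes of that library cancels. The TPM of Mdm2 was 0.396 and 0.446 of that of Trp53 at low density and 1.08 and 0.967 of it at high density. For Mdm4 the ratio to Trp53 was 0.333 and 0.331 in the low density libraries and 0.83 and 0.861 in the others. The mean ratio was thus 2.43 times as large at high density for Mdm2 and 2.54 times for Mdm4. Since Trp53 is the denominator and was itself lower in both high density libraries, the ratio to Trp53 lay higher in both high than in both low density libraries for 79.4% of the other 10935 rows tested, so the separation says nothing particular about these genes. The inhibitors kept a like proportion to each other: Mdm2 over Mdm4 was 1.19 and 1.35 in the low density libraries and 1.30 and 1.12 in the others, and the groups overlapped. Of the targets, Ccng1 stood at 0.548 and 0.553 of Trp53 at low density and at 0.862 and 0.719 at high density. Zmat3 stood at 0.112 and 0.114 against 0.261 and 0.173, and Phlda3 at 0.0867 and 0.0692 against 0.163 and 0.122. For Trp53inp1 the ratio was 0.515 and 0.459 against 2.2 and 1.03. Of the 7 ratios to Trp53, all but that of Aen lay higher at high density, a share near that of all rows. These ratios show unequal change and not which of the RNAs changed, and with 2 libraries a group they carry no test.

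**Figure D3:**
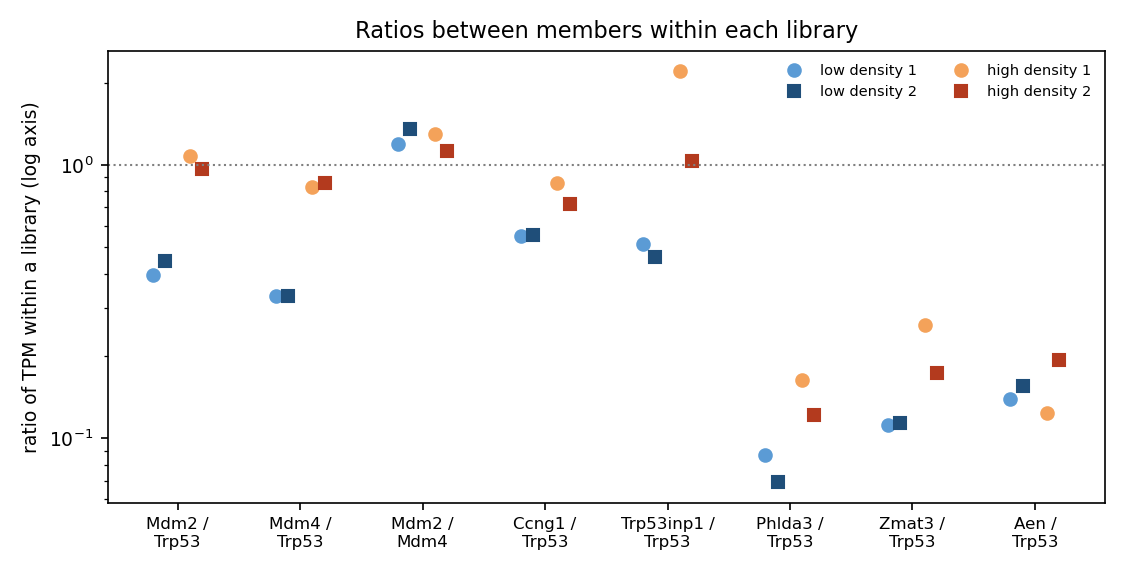
Ratio of the TPM of 1 gene to that of another within each library (log axis), with a dotted line at equal levels. Mdm2 and Mdm4 stand at 0.331 to 0.446 of Trp53 at low density and at 0.83 to 1.08 at high density, while the ratio of Mdm2 to Mdm4 stays between 1.12 and 1.35.

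Among the targets, Trp53inp1, a stress-induced nuclear protein that enhances p53 activity, had the largest difference. Its RNA was 143 and 115 TPM at low and 353 and 164 TPM at high density. Only high density library 1 stood far from the rest, and the high density mean of 259 ± 134 TPM rested on it (low density 129 ± 19.6 TPM, ratio 2.01). The log2 fold change was 0.91 ± 0.33 (limma adjusted p = 0.12). Leaving out high density library 1 gave 0.36, and leaving out the other high density library gave 1.46.

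Aen, a nuclease that takes part in p53-driven apoptosis, was 38.9 TPM in both low density libraries and 19.9 and 30.9 TPM at high density. The groups did not overlap, but the high density libraries lay 0.61 apart on the log2 scale, nearly as far as the groups themselves (log2 fold change −0.63 ± 0.29, limma adjusted p = 0.21). It was −0.32 when high density library 1 was left out and −0.93 when library 2 was. Relative to Trp53, Aen RNA overlapped between the groups, at 0.14 and 0.155 against 0.124 and 0.193.

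Ccng1, which encodes cyclin G1, a partner of the phosphatase that acts on Mdm2, was 152 and 139 TPM at low and 139 and 115 TPM at high density. The groups came within 1 TPM of each other at 139 TPM, and the log2 fold change was −0.20 ± 0.23 (95% interval −0.71 to 0.31, limma adjusted p = 0.652). Zmat3, an RNA-binding zinc finger protein, was 31.0 and 28.7 TPM at low and 42.0 and 27.7 TPM at high density. Phlda3, a membrane-binding inhibitor of the kinase Akt, was 24.0 and 17.3 TPM at low and 26.3 and 19.5 TPM at high density. Both overlapped between the groups, with log2 fold changes of 0.19 ± 0.28 for Zmat3 (95% interval −0.43 to 0.81, limma adjusted p = 0.732) and 0.14 ± 0.30 for Phlda3 (−0.51 to 0.79, 0.814). The signs of these 2 turned in some settings, Phlda3 to −0.05 after median centring, −0.08 after quantile normalisation and as low as −0.08 with 1 library left out, and Zmat3 to −0.10 without high density library 1. For all 3 of Ccng1, Zmat3 and Phlda3 the interval includes changes in either direction.

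Eda2r, a TNF-family receptor for a form of ectodysplasin and a strong p53 target in many tissues, was close to the floor. It was 0.271 and 0.547 TPM at low and 0.175 and 0.241 TPM at high density. No fold change is given for it, since TPM keeps no depth and the number of reads behind such values is unknown.

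The order of the levels differed between the densities. At low density Trp53 led with 264 TPM, followed by Ccng1 (145), Trp53inp1 (129), Mdm2 (111), Mdm4 (87.7), Aen (38.9), Zmat3 (29.8), Phlda3 (20.7) and Eda2r (0.409). Of these neighbours, the libraries overlapped only between Ccng1 and Trp53inp1. At high density the means ran from Trp53inp1 (259 TPM) through Mdm2 (164), Trp53 (160), Mdm4 (136), Ccng1 (127), Zmat3 (34.9), Aen (25.4) and Phlda3 (22.9) to Eda2r (0.208). There Trp53inp1 overlapped with Mdm2, Mdm2 with Trp53, Mdm4 with Ccng1, Zmat3 with Aen and Aen with Phlda3.

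Leaving out a high density library changed calls. In such a fit the spread within groups comes from the low density pair alone, and the lone high density library is assumed to vary like it. Without high density library 1, Trp53 (limma adjusted p = 0.00957) and Mdm4 (0.0183) were called, in a fit that called 34.2% of all rows. Without high density library 2, Trp53 (0.0205), Aen (0.00805), Mdm2 (0.0295), Mdm4 (0.043) and Trp53inp1 (0.000683) were called, in a fit that called 23.6% of all rows. Without either low density library no gene of the 9 was called, and the lowest adjusted p was then 0.241, for Trp53inp1. Those fits called 2.75% of all rows when library 1 was the one left out and 1.65% when it was library 2.

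The rows most like Trp53 were sought among 9260 named rows averaging 5 TPM or more, by the root mean square distance between log2(TPM + 1) profiles over the 4 libraries, each centred on its own mean. Nearest were Ddx24, an RNA helicase (distance 0.025), Sytl3, a synaptotagmin-like protein (0.031), and Sept9, a septin (0.035). Ddx24 was 90.3 and 82.1 TPM at low and 54.0 and 54.1 TPM at high density. In all, 87 rows lay within a distance of 0.1 of Trp53, so likeness to Trp53 over 4 libraries does not single out the genes named. Nearest to Trp53inp1, the member with the largest difference, were Acsl3, a fatty acid activating enzyme (distance 0.041), Anln, the cell division scaffold anillin (0.058), and Tcrg-V3, a T cell receptor gamma variable segment (0.065). Only 6 rows lay within 0.1 of Trp53inp1. Acsl3 was likewise highest in high density library 1, at 45.5 and 33.8 TPM at low and 112 and 51.0 TPM at high density.

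The wider pathway was read from 38 further textbook targets in 3 lists. Of these, 31 passed the filter and 2 were called, both higher and 0 lower, which is 6.45% of those tested, close to the 6.68% of all rows. At an unadjusted p under 0.05 stood 9 of the 31 (29.0%), beside 23.5% of all rows. Their median log2 fold change was 0.13, beside 0.12 for all rows. Bbc3, which encodes the death-inducing BH3-only protein PUMA, was 50.5 and 34.6 TPM at low and 144 and 102 TPM at high density. It rose by 1.51 ± 0.28 on the log2 scale (limma adjusted p = 0.00933), but its call was lost after median centring (1.33, adjusted p = 0.0791), after quantile normalisation (1.37, 0.0638) and without low density library 2 (1.25, 0.265). Ddit4, an inhibitor of mTORC1, rose from 471 and 375 TPM to 1923 and 1450 TPM, by 1.99 ± 0.24 on the log2 scale (limma adjusted p = 0.00108), and its call was lost after median centring (1.80, adjusted p = 0.0522). Without the filter on low values neither was called (0.171 for Bbc3 and 0.136 for Ddit4), in a fit that called 0 rows of the table.

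In the list of cell cycle arrest targets, 0 of 8 tested rows were called by limma, beside 6.68% of all rows. An unadjusted p under 0.05 was found for 0 of the 8, beside 23.5% of all rows. The median log2 fold change was 0.07, beside 0.12 for all rows. Cdkn1a, which encodes p21, the inhibitor of cyclin-dependent kinases through which p53 stops the cycle, was 49.9 and 43.6 TPM at low and 136 and 41.7 TPM at high density. High density library 1 alone stood apart and library 2 was the lowest of the 4 (log2 fold change 0.68 ± 0.43, limma adjusted p = 0.366). Gadd45a, a stress protein, was 192 and 187 TPM at low and 68.6 and 260 TPM at high density, and Psrc1, a spindle protein, 64.1 and 73.2 TPM at low and 130 and 58.3 TPM at high density. In these 3 genes the high density libraries fell on opposite sides of both low density libraries. With library 2 of the high density pair left out the log2 fold changes were 1.53 for Cdkn1a, −1.45 for Gadd45a and 0.92 for Psrc1. With library 1 left out they were −0.16, 0.46 and −0.23. Plk2 and Rprm lay under the filter, with at most 0.169 TPM in any library.

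In the list of cell death targets, 1 of 8 tested rows was called by limma, Bbc3 (12.5%, beside 6.68% of all rows). An unadjusted p under 0.05 was found for 3 (37.5%), beside 23.5% of all rows. The list median was −0.16, beside 0.12 for all rows. Trp53i11, a p53-induced membrane protein, was 524 and 434 TPM at low and 293 and 286 TPM at high density (log2 fold change −0.72 ± 0.22, limma adjusted p = 0.0789). Fas, the death receptor, was 26.8 and 24.3 TPM at low and 45.1 and 36.6 TPM at high density (log2 fold change 0.65 ± 0.26, limma adjusted p = 0.166). Below the filter lay Pmaip1, which encodes NOXA, Perp and the death receptor gene Tnfrsf10b, at no more than 0.0297, 0.038 and 0.467 TPM. Bax, named here after its values were seen, ranged from 239 to 306 TPM.

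In the list for repair, metabolism and redox control, 1 of 15 tested rows was called by limma, Ddit4 (6.67%, beside 6.68% of all rows). An unadjusted p under 0.05 was found for 6 (40.0%), beside 23.5% of all rows. The median log2 fold change was 0.46, beside 0.12 for all rows. Rps27l, a ribosomal protein gene that p53 can induce, was 710 and 1095 TPM at low and 581 and 436 TPM at high density (log2 fold change −0.81 ± 0.27, limma adjusted p = 0.0917). Whether its reads were shared with its relative Rps27 is unknown, as the sources used here do not describe the counting. Polk, a DNA polymerase that copies past damage, was 18.1 and 14.9 TPM at low and 32.1 and 26.4 TPM at high density (log2 fold change 0.79 ± 0.28, limma adjusted p = 0.115). Pank1 and Dcxr lay under the filter.

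**Figure D4:**
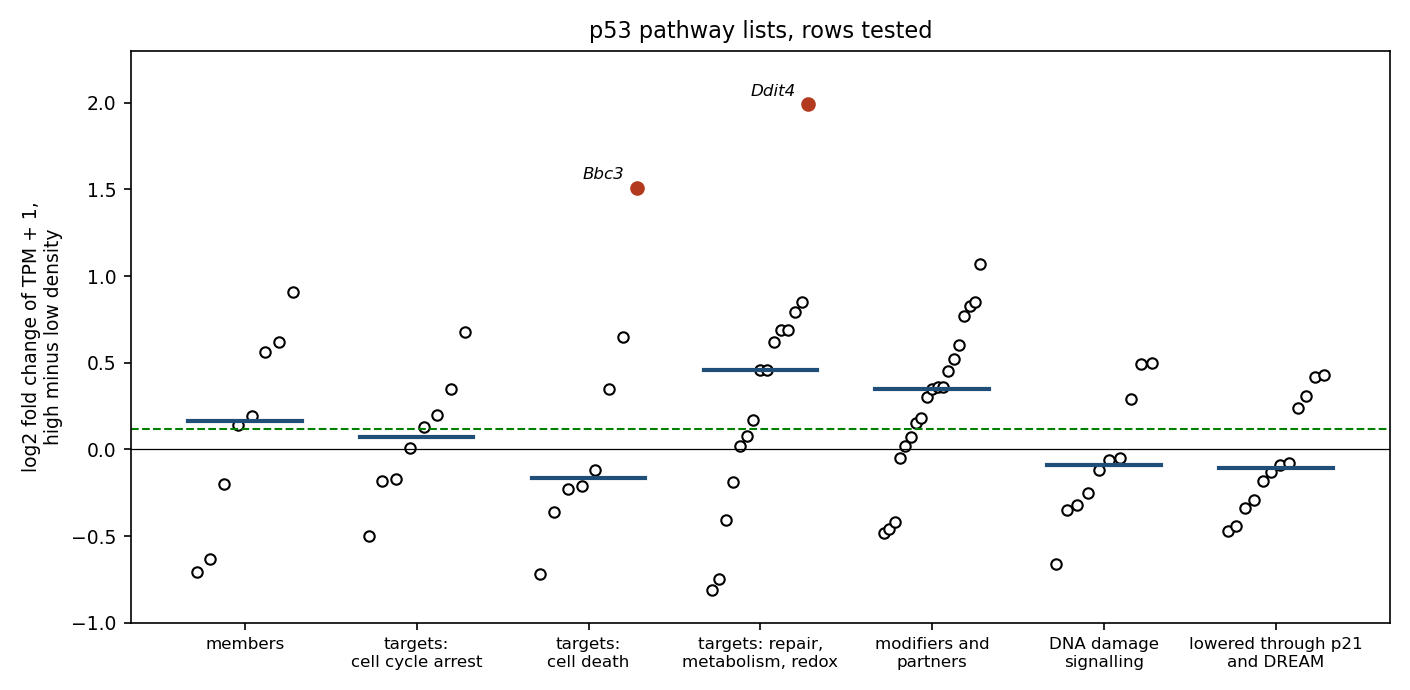
Log2 fold change of TPM + 1, high minus low density, of every row tested in the 9-gene set (labelled members) and in 6 pathway lists; filled points are called rows, blue bars the median of each list and the dashed line the median of all rows tested (0.12). Bbc3 and Ddit4 are the 2 rows called, and the list medians lie between −0.16 and 0.46.

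Of 21 genes whose proteins modify or bind p53 or its inhibitors, 19 were tested. Limma called 0 of them, beside 6.68% of all rows. An unadjusted p under 0.05 was found for 4 (21.1%), beside 23.5% of all rows. The median log2 fold change of the list was 0.35, beside 0.12 for all rows. The smallest p belonged to Ppp1r13l, the p53-binding inhibitor iASPP, at 7.72 and 7.25 TPM at low and 22.6 and 12.4 TPM at high density (log2 fold change 1.07 ± 0.34, limma adjusted p = 0.0823), and its log2 fold change was 0.66 with high density library 1 left out and 1.48 (called, 0.00156) with library 2 left out. Trim24, a ubiquitin ligase for p53, was 20.9 and 16.7 TPM at low and 31.0 and 38.3 TPM at high density, a log2 difference of 0.85 ± 0.28 (limma adjusted p = 0.0904). Ep300, an acetyltransferase that acts with p53, was 36.7 and 25.5 TPM at low and 48.9 and 62.2 TPM at high density, a log2 difference of 0.83 ± 0.28 (0.0997). Hipk2, a p53 kinase, was at most 0.31 TPM. Cdkn2a, the gene of the Mdm2 inhibitor ARF and of the cell cycle inhibitor p16, was listed at 0 in all 4 libraries. Of the 11 genes of DNA damage signalling, Atrip, which cycling cells use, was also listed at 0 in all 4, so an exact 0 in this table need not mean that the RNA was absent.

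DNA damage sensors and kinases gave 0 calls by limma among 10 tested rows, with 1 at an unadjusted p under 0.05 and a median log2 fold change of −0.09. H2ax (listed under its older symbol H2afx), the histone variant marked at DNA breaks, was 713 and 536 TPM at low and 517 and 294 TPM at high density (log2 fold change −0.66 ± 0.29, limma adjusted p = 0.189). It was −1.07 (called, 0.00134) when high density library 1 was left out and −0.26 when library 2 was. The kinase gene Atr had a log2 fold change of 0.50 ± 0.28 (limma adjusted p = 0.314) and Prkdc, the catalytic subunit of the DNA-dependent kinase, one of 0.49 ± 0.34 (0.419). Leaving out high density library 1 gave 0.75 for Atr and 0.89 for Prkdc, and leaving out library 2 gave 0.24 and 0.09.

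Genes that p53 is known to lower through p21 and the DREAM repressor complex gave 0 calls by limma among 12 tested rows. Of all rows, 6.68% were called. An unadjusted p under 0.05 was found for 0 of the 12, beside 23.5% of all rows. Their median log2 fold change was −0.11, beside 0.12 for all rows. Ccnb1, the mitotic cyclin B1, was 142 and 136 TPM at low and 133 and 75.4 TPM at high density (log2 fold change −0.47 ± 0.28, limma adjusted p = 0.348). It was −0.88 (called, 0.00302) with high density library 1 left out and −0.06 with library 2 left out. Mki67, the proliferation marker, had a log2 fold change of 0.42 ± 0.23 (limma adjusted p = 0.296) and the phosphatase gene Cdc25c one of 0.43 ± 0.25 (0.328). In 6 of the 12 rows high density library 1 exceeded library 2 by over 1.5-fold, and in 0 the reverse. Over all 10936 rows tested these counts were 879 and 2952. The p53 relatives Trp63 and Trp73 did not reach the filter, Trp63 being listed at 0 and Trp73 at no more than 0.108 TPM.

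The spread within the high density pair ran through the targets in both directions. Of the 31 target rows tested, 5 were over 1.5-fold higher in high density library 1 than in library 2 and 5 were over 1.5-fold higher in library 2, whereas over all rows tested the counts were 879 and 2952 of 10936. The widest gaps were 1.68 on the log2 scale for Cdkn1a, in favour of library 1, and −1.91 for Gadd45a, in favour of library 2. Among the 8 genes tested, Trp53inp1 (1.10) and Zmat3 (0.58) were over 1.5-fold higher in library 1 and Aen (−0.61) over 1.5-fold higher in library 2, while Trp53 (0.01) and Mdm4 (−0.05) were nearly level. No gene of the 8 differed by over 1.5-fold between the low density libraries. Of the other list genes named, log2 fold changes without high density library 1 and without library 2 were −0.73 and −0.70 for Trp53i11. They were 0.65 and 0.92 for Polk, 1.00 and 0.70 for Trim24, and 0.50 and 0.79 for Fas. For Rps27l they were −1.02 and −0.60, and for Ep300 1.00 and 0.66. What separates the high density libraries was not tested.

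**Figure D5:**
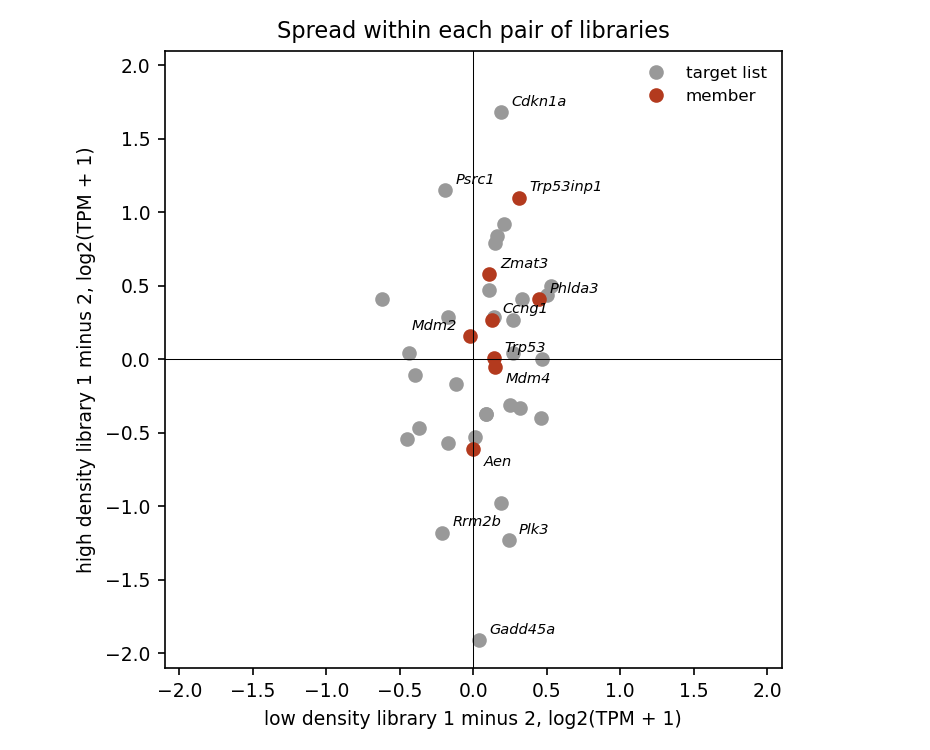
Difference between the 2 low density libraries (x axis) and between the 2 high density libraries (y axis), library 1 minus library 2 in log2(TPM + 1), for the 8 genes tested (red, labelled member) and the 31 rows of the target lists (grey). Cdkn1a (1.68) and Gadd45a (−1.91) mark the ends of the high density axis, while low density differences stay within −0.62 and 0.53.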

How the data were processed

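RNA was measured in 4 libraries of BEKO cells, prepared as strand-specific libraries per the labels' protocols. All values are TPM as deposited by the authors, 1 column per library. The column of low density library 1, the one that was summed, came to 1000000. The submitters' processing notes name mm9 and DESeq2 1.2.10, without a role for either. Which aligner, counter, annotation and gene lengths were used was not given in the sources used here. TPM keeps no depth, so no counting interval is given.

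Rows averaging 1 TPM or more (10936, with 14694 below) were tested on log2(TPM + 1) with limma 3.58.1 in R 4.3.3 (group term, mean-variance trend, two-sided, Benjamini-Hochberg over all rows tested). The model has 2 residual and 9.53 prior degrees of freedom. Fold changes on this scale understate those of weak genes. Called means an adjusted p under 0.05. The members and lists were chosen with earlier results of these data known. Named by rule were the 9 genes, the called rows and those of smallest p up to 3 per list, the 3 rows nearest in profile, the cell type markers and Cdkn1a. Alternatives were pseudocounts, filters, scalings, variance models, a replicate block and each library left out.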

Additional observations from a re-analysis of the deposited data

How the results depend on the processing

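Of the 14 alternatives, 11 left the count of called genes among the 9 at 0. With the replicate block 1 was called higher (Trp53inp1, limma adjusted p = 0.0276), in a fit that called 600 rows higher and 337 lower. Leaving out 1 library gave 0 to 3 higher and 0 to 2 lower. The sources used here state no pairing of same-numbered libraries, so the fit without the block is the main one. Deviations of same-numbered libraries correlated at 0.0416 across rows, which cannot show whether they were prepared together. The target lists had 2 rows higher and 0 lower. They had 0 higher without the filter (limma, 7 at an unadjusted p under 0.05) and after median centring (8 at an unadjusted p under 0.05), 1 higher after quantile normalisation, 1 lower with the block (Rps27l), and 1 to 7 higher and 0 to 4 lower when 1 library was left out. Over all rows, 500 were called higher and 231 lower. Without the filter 0 and 0 were called (2638 at an unadjusted p under 0.05). Median centring gave 160 higher and 154 lower, quantile normalisation 216 and 144, and limma without the trend 144 lower. Leaving out 1 library gave 99 to 2873 higher and 69 to 1271 lower. For single genes, signs turned for Zmat3 (−0.0031 after quantile normalisation, −0.10 to 0.48 with 1 library left out), Phlda3 (−0.05 after median centring, −0.08 after quantile normalisation, −0.08 to 0.37 with 1 library left out), Cdkn1a (−0.16 to 1.53), Gadd45a (−1.45 to 0.46) and Psrc1 (−0.23 to 0.92), the last 3 with a high density library left out. The causes were not tested. Depth is unknown, which limits what can be said of Eda2r and other rows near 0.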
